A study of Mus musculus with 6 samples.

Results

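The cytosolic ribosomal protein genes were taken from the deposited count table as every protein-coding row whose name begins with Rpl or Rps and a digit, together with Rplp0, Rplp1, Rplp2 and Rpsa. Ribosomal S6 kinases and names containing -ps were left out, which removed 10 and 6 protein-coding rows. The rule gave 87 of the 55849 rows, 52 with large subunit names and 35 with small subunit names. Levels were read in 6 libraries of poly-T selected RNA from untreated mice, 3 wild-type (C57BL/6) and 3 Muc2-/-, whose descending colon was taken at an age of 12 weeks. Muc2 encodes the mucin that forms the gel over the colonic epithelium, and mice without it develop colitis. The labels do not describe the mutated allele, the strain background of the mutants, the sex of the animals or whether a library pools several animals. Titles of the samples name colon crypts, whereas the protocols name dissected colon. Replicate numbers come from the titles, and p-values measure only the spread between these libraries.

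A ribosome joins a small subunit, which reads the messenger RNA, to a large subunit, which forms the peptide bond. Nearly every ribosomal protein is present in a single copy per ribosome, and cells make them in matched amounts. Their messenger RNAs are short and abundant, and most begin with a 5′ terminal oligopyrimidine tract, a run of C and T bases at the start site through which the kinase mTORC1 controls their translation. Dividing crypt epithelium, plasma cells and other secreting cells are rich in ribosomes.

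The start sites of 7 members that the results below turn on are printed here to show how far such a tract is present at their starts. Each is 30 bases long, from 10 bases before the annotated start to 20 from it onward, 5′ to 3′, from RefSeq on GRCm38.p6. Capitals mark the longest run of C and T in the window.
Rpl22l1, chr3:28805498-28805527, plus strand: gcgcaagcccgTTCTCTTCCCacggctgca
Rps12, chr10:23787190-23787219, minus strand: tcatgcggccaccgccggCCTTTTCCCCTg
Rplp2, chr7:141447641-141447670, plus strand: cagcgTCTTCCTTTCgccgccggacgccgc
Rps9, chr7:3704031-3704060, plus strand: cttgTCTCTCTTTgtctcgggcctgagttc
Rpl15, chr14:18270967-18270996, minus strand: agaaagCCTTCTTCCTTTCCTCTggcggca
Rpl37a, chr1:72711250-72711279, plus strand: CTCgccggtctaaaaccgcgcatgcgcatt
Rpl37, chr15:5116603-5116632, plus strand: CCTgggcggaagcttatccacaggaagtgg

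Rpl15 held a run of 17 such bases, Rps12 a run of 11, Rplp2 and Rpl22l1 runs of 10 and Rps9 a run of 9. In Rpl37a and Rpl37 the longest run in the printed window was 3 bases. RefSeq start sites were found for 67 of the 87 members. A run of at least 8 C or T bases on the sense strand, searched from 20 bases before to 30 bases after the start, was present at 36 of 79 member start sites (45.6%) and at 19.0% of all 32851 start sites. A match is a description of these letters, and the annotated start can lie several bases from the start used in colon.

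One library stood apart before any comparison was made. Muc2-/- 2 differed from the other 5 libraries in the level of most members and in the relation of gene level to transcript length. Across 3482 other protein-coding genes with a mean of at least 1000 counts, the rank correlation between messenger RNA length and the library's deviation was -0.43 in Muc2-/- 2 and lay between -0.14 and 0.08 in the others. The points of such a correlation are genes of 1 library and no independent replicates. Library totals ran from 16395432 to 20336459 counts, and Muc2-/- 2 had the lowest scaling factor for composition (TMM, 0.877, against 0.963 to 1.10). Mitochondrially encoded genes took 1.04% of named counts in Muc2-/- 2 and at least 3.30% in each of the others. Muc2 itself had 44776, 133863 and 55133 counts in wild-type libraries 1, 2 and 3 and 12706, 15451 and 15243 counts in Muc2-/- 1, 2 and 3 (log2 fold change -2.15, edgeR quasi-likelihood adjusted p = 0.103). Results that rest on Muc2-/- 2 are given with and without it.

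Epithelial and muscle markers were both counted in every library. The summed level (CPM, read counts scaled for library size and TMM factor) of 7 epithelial markers (Epcam, Cdh1, Krt8, Krt18, Krt20, Vil1 and Cdx2) ran from 8130 to 13902 in wild-type and from 17285 to 25117 in Muc2-/-. That of 10 smooth muscle markers ran from 5946 to 21110 and from 2554 to 4571. For 6 plasma cell markers it ran from 1227 to 1768 and from 5823 to 7141, for 6 leukocyte markers from 105 to 324 and from 140 to 261, and for 10 proliferation markers from 318 to 351 and from 389 to 543. For 6 fibroblast markers it ran from 620 to 1232 and from 559 to 754, and for 6 markers of neurons and glia from 40.7 to 169 and from 15.9 to 41.8. No marker of these 7 lists was at 0 in any library, and edgeR called Igha, Jchain and Igkc of the plasma cell list higher in Muc2-/- (adjusted p = 0.0456, 0.0286 and 0.0490). The summed levels of the epithelial, smooth muscle, plasma cell and proliferation lists did not overlap between the groups. A fit with a smooth muscle score as covariate is among the alternatives given in the last section. Otherwise the part of these lists in the ribosomal protein levels was not tested. In these bulk libraries fewer cells of a type cannot be told apart from less RNA per cell.

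**Figure D1:**
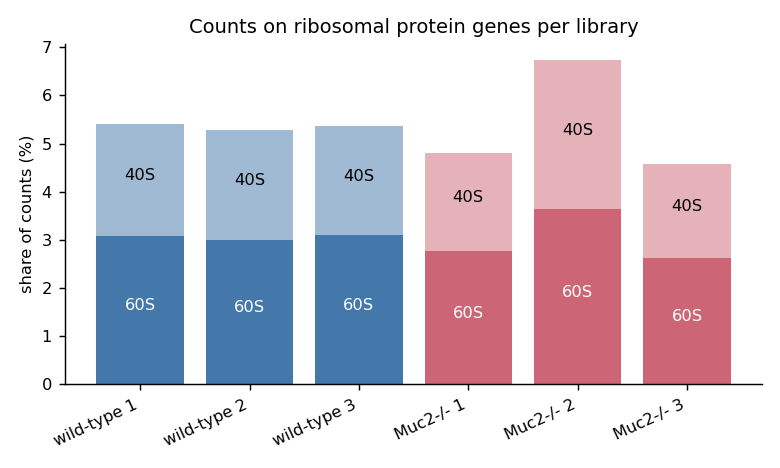
Share of the counts of named genes (percent) that fell on the large subunit members (60S, solid) and small subunit members (40S, pale) in each library. The 3 wild-type bars lie between 5.28% and 5.41%, Muc2-/- 1 and 3 lie below them, and Muc2-/- 2 reaches 6.73%.

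Ribosomal protein genes took nearly the same share of the transcriptome in the 3 wild-type colons, namely 5.41%, 5.28% and 5.36% of counts in wild-type libraries 1, 2 and 3. In Muc2-/- 1, 2 and 3 the share was 4.79%, 6.73% and 4.57%. Muc2-/- 1 and 3 thus lay below every wild-type library and Muc2-/- 2 above all of them, so the groups overlapped. The means were 5.35% ± 0.0638 in wild-type and 5.37% ± 1.19 in Muc2-/- (SD, n = 3 each). The place of Muc2-/- 1 depended on the scale. On TMM-scaled sizes the summed level was 49051, 49533 and 51865 CPM in wild-type libraries 1, 2 and 3 and 49762, 76716 and 46896 CPM in Muc2-/- 1, 2 and 3, so Muc2-/- 1 fell inside the wild-type range and Muc2-/- 3 still below it. The ratio of large to small subunit counts was 1.32, 1.32 and 1.37 in wild-type, 1.36 and 1.34 in Muc2-/- 1 and 3, and 1.17 in Muc2-/- 2. In the bars of share by library, Muc2-/- 2 is highest and Muc2-/- 1 and 3 lie below every wild-type library for both subunits.

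The comparison of Muc2-/- with wild-type asked whether any ribosomal protein transcript differed with genotype at this age. Of the 87 members 83 had enough counts to be tested. The 4 others were Rpl3l, Rpl10l, Rpl39l and Rps23rg1, with 16, 0, 1 and 38 counts over all libraries. edgeR's quasi-likelihood test, with Benjamini-Hochberg adjustment over 16107 genes at 0.05, called 0 of the 83 members, where 0.124% of all tested genes were called, 0.106% higher and 0.0186% lower in Muc2-/-. Without Muc2-/- 2 it again called 0 members, where 0.107% of all tested genes were called. At an unadjusted p under 0.05 it listed 0 members, where 21.0% of all tested genes were listed. The smallest adjusted p among the members was 0.295, that of Rpl22l1. DESeq2 called 0 of 84 members with an adjusted p, where it called 10.1% of all genes with one. It listed 1 member, Rpl22l1, at an unadjusted p under 0.05, where 15.3% of all genes were listed. The CPM of the groups did not overlap in 3 members (3.61%), 1 higher and 2 lower, against 28.5% of all tested genes (13.3% higher and 15.2% lower). Where 0.124% or 0.107% of all genes were called, 0 of 83 members is near the background. The unadjusted, DESeq2 and non-overlap counts lay below the background, and no count was tested against it. The counts do not show equal levels. The 95% interval of the log2 fold change lay within -1 and 1 for 53 of the 83, and its median width to either side was 0.58.

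The fold changes of the members were small and mostly positive with all 6 libraries, and centred near 0 without Muc2-/- 2. Their median log2 fold change was 0.12, with 59 positive and 24 negative, and the median over all tested genes was -0.01. Without Muc2-/- 2 the median turned to -0.03, with 32 positive and 51 negative. Without composition factors it was -0.07, on a scale on which the median of all genes stood at -0.20. Large subunit members had a median of 0.11 and small subunit members of 0.23, which became -0.04 and -0.03 without Muc2-/- 2. Among 1947 tested genes at 100 CPM or more that are not members, the median was 0.28 with all libraries and 0.24 without Muc2-/- 2.

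**Figure D2:**
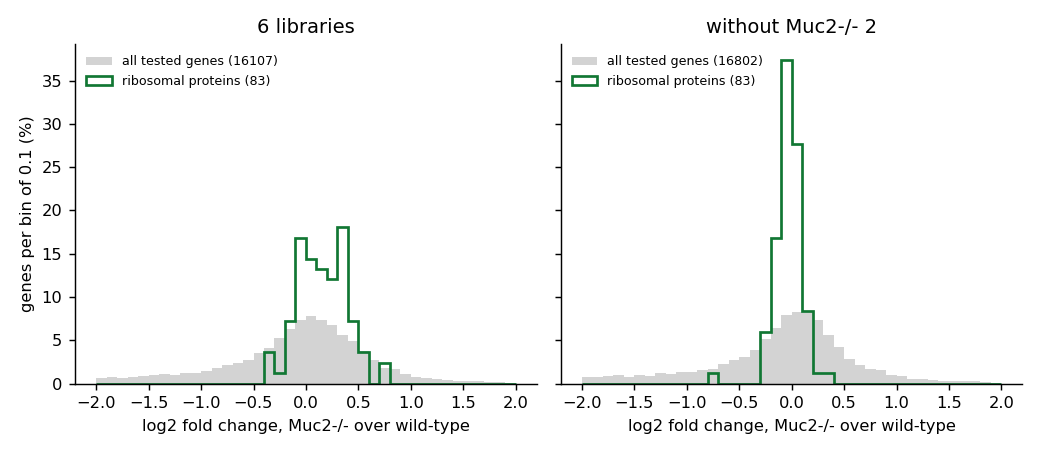
Distribution of log2 fold changes (Muc2-/- over wild-type) as percent of genes per bin, for all tested genes (grey) and the 83 ribosomal protein genes (green line), with 6 libraries on the left and without Muc2-/- 2 on the right. The axis shows values from -2 to 2, and the green line narrows around 0 on the right, where the middle 50% of members lie between -0.10 and 0.04.

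The proportions among ribosomal protein transcripts were kept more closely among 5 libraries than between these and the remaining library. This was measured over the 78 members with a mean of at least 1000 counts. Between any 2 of the 5 libraries without Muc2-/- 2, the log2 ratios of the members had an SD from 0.13 to 0.25 over 10 pairs. For 3491 other protein-coding genes with a mean of at least 1000 counts it ran from 0.29 to 0.82. Only this minimum was shared, and depth above it was not matched. In the 5 pairs with Muc2-/- 2 the members had an SD from 0.55 to 0.62 and the other genes from 0.70 to 0.99. By interquartile range the members and the other genes lay closer. Without Muc2-/- 2 it ran from 0.11 to 0.32 for members and from 0.26 to 0.68 for other genes. With Muc2-/- 2 it ran from 0.73 to 0.86 and from 0.86 to 1.06. Of the 78 members, 55 (70.5%) stood higher in Muc2-/- 2 than in every other library and 10 (12.8%) stood lower. Among the other genes these shares were 42.4% and 21.2%. The 55 comprised 32 of 46 large subunit and 23 of 32 small subunit members, and the 10 comprised 5 of each.

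**Figure D3:**
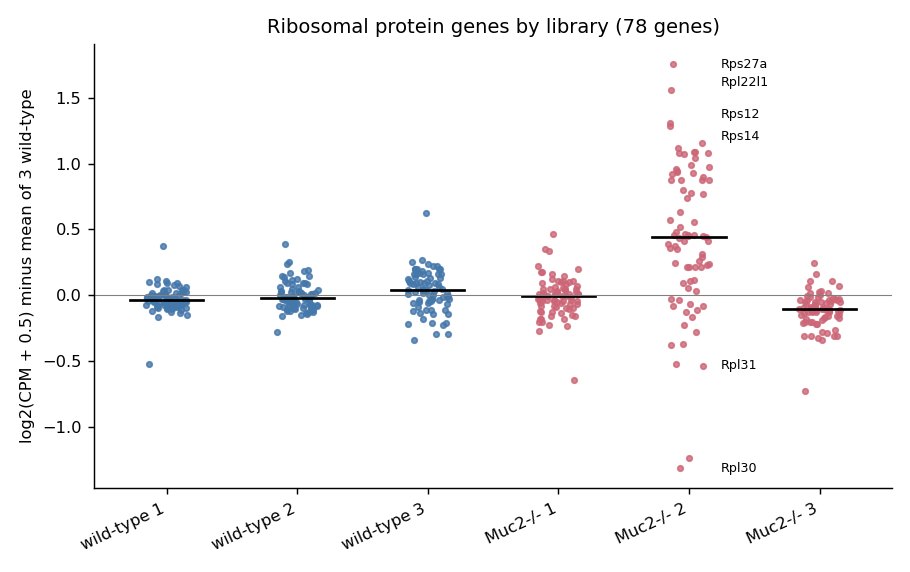
Each point is 1 of 78 ribosomal protein genes, plotted as log2(CPM + 0.5) minus its mean over the 3 wild-type libraries, and black lines are medians. Points cluster near 0 in 5 libraries and spread from -1.31 to 1.75 in Muc2-/- 2.

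The stalk proteins bring translation factors to the large subunit. Rplp0, the base of the stalk (chromosome 5, 115697526 to 115701786, coordinates as the count table lists them), stood at 1868, 1892 and 2216 CPM in wild-type libraries 1, 2 and 3, against 2195, 2711 and 2136 CPM in Muc2-/- 1, 2 and 3. Wild-type 3 lay above Muc2-/- 1 and 3, so the groups overlapped (log2 fold change 0.24, 95% interval -0.39 to 0.86). Rplp1, which pairs with Rplp2 at the tip, stood at 1463, 1536 and 1339 CPM and at 1538, 3037 and 1386 CPM. Rplp2 stood at 690, 689 and 571 CPM and at 563, 1379 and 602 CPM. In Muc2-/- 2 they were at 2.09 and 2.21 times the mean of the other 5 libraries, and in Muc2-/- 1 and 3 both lay within or near the wild-type range. Rplp0 was at 1.31 times that mean, so base and tip of the stalk differed in that library.

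Core large subunit proteins differed in how far they moved in Muc2-/- 2. Rpl10, which joins late in assembly, stood at 857, 851 and 1049 CPM in the wild-type colons and at 962, 992 and 929 CPM in the mutants, with every Muc2-/- value inside the wild-type range. Rpl5 and Rpl11, which with ribosomal RNA also bind the p53 regulator Mdm2, were at 1.31 and 1.38 times the mean of the others in Muc2-/- 2, above every other library. Their log2 fold changes had 95% intervals from -0.51 to 0.65 and from -0.41 to 0.73. Rpl39, a small protein of the exit tunnel, stood at 239, 257 and 241 CPM and at 282, 235 and 220 CPM. Its interval, from -0.44 to 0.44, was among the narrower ones.

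Other large subunit members moved far in Muc2-/- 2 alone. Rpl30 (chromosome 15, 34440651 to 34443786) stood at 420, 443 and 317 CPM in wild-type libraries 1, 2 and 3, against 454, 157 and 346 CPM in Muc2-/- 1, 2 and 3. Muc2-/- 2 was at 39.6% of the mean of the other 5, the lowest such value among the 78 members. Rpl31 stood at 67.3% and Rpl15 at 76.4% of that mean. Rpl37a, in contrast, stood at 590, 629 and 555 CPM and at 545, 1284 and 509 CPM, 2.27 times the mean of the others in Muc2-/- 2. Rpl41, the smallest ribosomal protein, stood at 1411, 1669 and 1321 CPM and at 1587, 2892 and 1466 CPM, or 1.94 times.

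Among small subunit proteins, Rps27a, made as a fusion with ubiquitin (chromosome 11, 29495846 to 29498109), was the furthest above the rest in Muc2-/- 2. Its level was 320, 434 and 261 CPM in wild-type libraries 1, 2 and 3, against 323, 1118 and 288 CPM in Muc2-/- 1, 2 and 3, 3.44 times the mean of the others. Its log2 fold change was 0.77 (SE 0.53, edgeR adjusted p = 0.440) and turned to -0.12 without Muc2-/- 2. Rps12 stood at 461, 470 and 375 CPM and at 382, 1074 and 431 CPM, and its log2 fold change went from 0.53 to -0.07 without Muc2-/- 2. Rps14, Rps3a1, Rps9, Rps3 and Rps20 were at 2.43, 2.24, 2.18, 2.09 and 2.13 times the mean of the others in that library. Without it the log2 fold changes of these 5 lay between -0.09 and 0.04.

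Rps6, the substrate of S6 kinase, stood at 811, 798 and 956 CPM in the wild-type colons and at 824, 1171 and 755 CPM in the mutants. Rpsa, a small subunit protein also known as a laminin receptor, stood at 1327, 1274 and 1279 CPM and at 1245, 2450 and 1258 CPM. In the 5 libraries other than Muc2-/- 2, Rpsa thus stayed between 1245 and 1327 CPM.

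**Figure D4:**
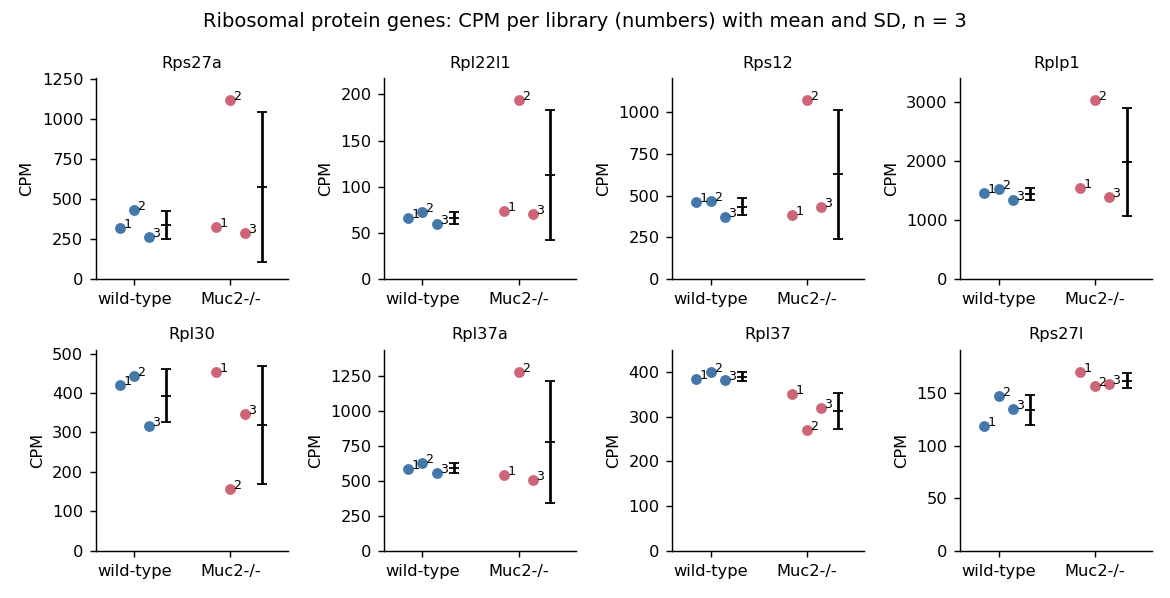
CPM of 8 ribosomal protein genes in each library (points, numbered by replicate) with the mean and SD of each group of 3. Muc2-/- 2 lies far from the other libraries in Rps27a, Rpl22l1, Rps12, Rplp1, Rpl30 and Rpl37a, while in Rpl37 and Rps27l the groups do not overlap.

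The 3 members whose groups did not overlap were Rpl37, Rps28 and Rps27l. Rpl37, a zinc-binding protein of the large subunit (chromosome 15, 5146127 to 5148622), stood at 385, 401 and 382 CPM in the wild-type colons and at 350, 271 and 319 CPM in the mutants. Its log2 fold change was -0.31 (SE 0.20, edgeR adjusted p = 0.405), and -0.19 without Muc2-/- 2. Rps28, near the messenger RNA exit of the small subunit, stood at 357, 418 and 362 CPM and at 344, 357 and 306 CPM. Wild-type 1 (357.4) and Muc2-/- 2 (356.9) differed by less than 1 CPM, so this separation was slight. Rps27l stood at 119, 147 and 135 CPM in the wild-type colons and at 170, 157 and 158 CPM in the mutants. Its log2 fold change was 0.27 (SE 0.18, edgeR adjusted p = 0.409) and 0.32 without Muc2-/- 2.

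Several members are variants of a core protein, and their share relative to the partner was compared. Rps27l, a p53 target whose product can take the place of Rps27, was counted at 25.5%, 27.5% and 28.3% of Rps27 in wild-type libraries 1, 2 and 3, against 34.4%, 34.7% and 33.7% in Muc2-/- 1, 2 and 3. The groups did not overlap, Muc2-/- 2 lay with the other 2 mutants, and the difference was 7.20 percentage points (p = 0.1 by a two-sided exact permutation test, the lowest value that 3 against 3 can give, and 0.333 adjusted over the 5 ratios compared). Rpl22l1 replaces Rpl22, and loss of Rpl22 is known to raise it. Its counts were 18.8%, 21.1% and 16.7% of those of Rpl22 in wild-type and 20.5%, 31.8% and 21.9% in the mutants. For this ratio p was 0.2 by the two-sided exact permutation test, and 0.333 adjusted over the 5 ratios. Rpl22l1 (chromosome 3, 28859585 to 28861573) had the largest log2 fold change of the members, 0.78 (SE 0.39), which became 0.16 without Muc2-/- 2. Rpl22 itself stood at 350, 344 and 357 CPM and at 362, 609 and 323 CPM, so both genes of the pair were higher in Muc2-/- 2.

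The other variants gave smaller differences. Rps27rt, a retrotransposed copy of Rps27, was at 17.5% ± 0.831 of Rps27 in wild-type and 18.0% ± 3.74 in the mutants (SD, n = 3 each; two-sided exact permutation p = 0.8). Rpl7l1, a nucleolar relative of Rpl7, was at 8.86% ± 0.436 of Rpl7 in wild-type and 7.81% ± 1.07 in the mutants (SD, n = 3 each). The two-sided exact permutation test gave p = 0.2, and 0.333 adjusted over the 5 ratios. Rpl7l1 itself stood between 81.6 and 91.6 CPM in all 6 libraries. Rpl10l and Rpl39l, known mainly from testis, had 0 and 1 counts in all, and Rpl3l, known from striated muscle, had 16. Rps19bp1, which binds Rps19 and is caught by the naming rule without being a ribosome subunit, stood between 18.1 and 23.9 CPM.

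Some core members were nearly uncounted although every cell needs them. Rpl24 had 8 to 22 counts per library, Rps10 39 to 105 and Rpl13a 401 to 632, where 78 members averaged at least 1000. The variant Rpl36al had 10 to 21. Ribosomal protein genes have many processed pseudogenes, and 1691 pseudogene rows could be attributed to 77 members by name or description. In Rps10, 98.0% of the counts of gene and pseudogenes together lay on pseudogene rows, 18117 of them on Rps10-ps2. For Rpl24 this share was 91.0%, but of few counts, 812 on pseudogene rows beside 80 of its own over all libraries. For Rpl17 the share was 66.6%, and for Rpl13a it was 7.58%. Reads from near-identical copies can be split or dropped, so the levels of these members are uncertain. With pseudogene counts added to each member the median log2 fold change was 0.10, and 0 members were called, where 0.125% of all genes in that fit were called.

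The division of counts between a gene and a copy shifted between libraries for some pairs. Gm12191, a pseudogene of Rpl30, held 2.99%, 2.30% and 13.3% of the pair's counts in wild-type libraries 1, 2 and 3 and 2.32%, 42.5% and 9.17% in Muc2-/- 1, 2 and 3. It therefore held the most where Rpl30 was lowest, with 1755 counts beside 2372 of Rpl30 in Muc2-/- 2. For Rpl14 the opposite was seen: Rpl14-ps1 held between 19.2% and 24.0% in the other 5 libraries and 5.67% in Muc2-/- 2, where Rpl14 itself had 17434 counts against 7894 to 12617. Rps12-ps3 (20.8% to 24.9%) and Rpsa-ps10 (5.52% to 6.82%) kept a steadier share, and gene and copy both had their highest counts in Muc2-/- 2. Rpl7a-ps5 held 9.06% in wild-type 3 and 11.2% in Muc2-/- 2 but 26.3% to 32.4% elsewhere. Rpl17-ps10 varied over several libraries, with 36.1%, 54.3% and 69.3% in wild-type libraries 1, 2 and 3. In Muc2-/- 1, 2 and 3 it held 31.6%, 33.2% and 46.0%. These copies were named after their values were seen. Rpl7a, at 120, 162 and 267 CPM in wild-type libraries 1, 2 and 3, had a log2 fold change of -0.29, which became 0.10 without wild-type 3.

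Levels of different members were compared per length only. In deposited FPKM (fragments per kilobase of listed length, scaled to library size) Rplp1 was the highest with a mean of 3441, followed by Rps3a1 (1524), Rpl41 (1476), Rplp0 (1307) and Rps15 (1295). The gene lengths listed in the table were, for members, 1.00 to 6.79 times the length of the principal messenger RNA in GENCODE vM21. Per kilobase of that messenger RNA the order in wild-type was Rplp1, Rpl41, Rps18, Rps15 and Rpl13. Rps18, 36th by FPKM, was thus 3rd on this measure, so the rank of a member depends on the length used.

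Coding length separated wild-type libraries among themselves. Over the 78 members the log2 ratio of wild-type 3 to wild-type 2 rose with the length of the coding sequence (Spearman rho = 0.66, Pearson r = 0.59 on log2 length, across genes of 2 libraries). Among 3482 other genes rho was 0.15. Members with a coding sequence of at most 300 nucleotides (11 genes) had a median log2 ratio of -0.17, and those over 600 nucleotides (22 genes) one of 0.22. Other genes of the same classes had -0.14 and 0.08. Rpl41, Rpl39, Rps29 and Rps28 belong to the short class, and Rpl3, Rpl4 and Rplp0 to the long. In Muc2-/- 2 the pattern of other genes was not that of the members: other genes of at most 300 nucleotides (112 genes) stood 0.87 above wild-type on the log2 scale in the median, and the members of that class -0.06. In the class from 300 to 450 nucleotides the medians were 0.76 and 0.46, from 450 to 600 nucleotides 0.59 and 0.46, and over 600 nucleotides 0.17 and 0.46, where the members stood higher.

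**Figure D5:**
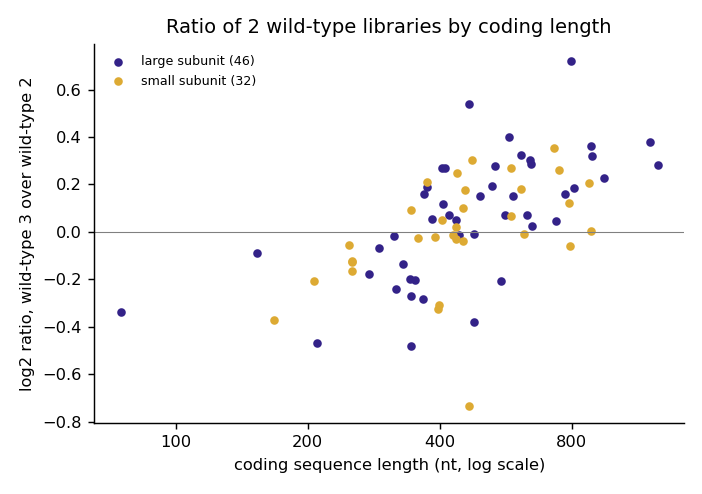
Log2 ratio of wild-type 3 to wild-type 2 for 78 ribosomal protein genes against the length of the coding sequence in nucleotides (log axis), coloured by subunit. Most members below 300 nucleotides lie under 0 and most above 600 nucleotides lie over it.

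In Muc2-/- 2, members with and without a long C or T run near the start site had similar median deviations. Among members with a RefSeq start and at least 1000 counts, the 32 with a run of at least 8 C or T bases had a median deviation of 0.44 on the log2 scale, from -0.54 to 1.55. The 26 without such a run had a median of 0.41, from -0.52 to 1.16. Such runs were found at 45.6% of member start sites and at 19.0% of all start sites. The split therefore sorts members by these letters only, and a part of the tract itself was not tested. Of the sequences printed above, Rpl22l1, Rps12, Rplp2 and Rps9 belong to members that were high in that library, as does Rpl37a without a long run. Rpl15, with the longest run, was low there, as was Rpl37 without a long run.

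Genes that act with the ribosome were read from lists. Outside the naming rule, Fau, a ubiquitin-like fusion that releases a small subunit protein, had a log2 fold change of 0.35, and -0.14 without Muc2-/- 2. Rack1, a scaffold on the small subunit, had 0.06 (95% interval -0.49 to 0.62). The lists overlap in part. Of 11 elongation genes, 41 initiation genes, 18 non-ribosomal genes with the tract, 59 ribosome assembly genes, 24 genes around mTORC1, Myc and p53, and 77 mitochondrial ribosome genes tested, edgeR called 0 in each direction.

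The lists did not follow the members in all respects. Ribosome assembly genes had a median log2 fold change of -0.22, and -0.23 without Muc2-/- 2. In 13 of the 59 the groups did not overlap and Muc2-/- was lower, against 15.2% of all tested genes in that direction, and in 0 it was higher. Ncl, nucleolin, had 6774, 5446 and 6847 counts in the wild-type colons and 3722, 4301 and 4325 in Muc2-/- (log2 fold change -0.35, edgeR adjusted p = 0.379), and in CPM its groups overlapped, with 283.9 in wild-type 2 and 284.2 in Muc2-/- 2. Npm1, a nucleolar chaperone, had a log2 fold change of 0.16. Mitochondrial ribosome genes had a median of 0.30 that became 0.05 without Muc2-/- 2, and their median deviation in that library was 0.74. Elongation genes had 0.21 and -0.03, and initiation genes 0.12 and 0.03. Eef1a1, the elongation factor that delivers aminoacyl-tRNA, had a log2 fold change of 0.04 with an interval from -0.71 to 0.78. Eif4g2, an initiation factor, had 0.41, with every Muc2-/- library above wild-type, and 0.28 without Muc2-/- 2 (edgeR adjusted p = 0.363 and 0.436).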

How the data were processed

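Raw, whole-number counts for each gene of the 6 libraries were deposited, and the authors also deposited FPKM values, per the file headers. The submitters' processing notes list the build mm10 and the tools DESeq2 (1.20.0), featureCounts (1.5.0-p3), HISAT2 (2.0.5) and StringTie (1.3.3b), giving none of them a role; the strand setting and the treatment of reads with several matches are not given in the sources used here. All 87 members had the width of their GENCODE vM21 gene but 1 the same start and end, so the table's coordinates are of another assembly than GRCm38 and are printed as given. Rows with a gene identifier but no gene name took 0.144% to 0.192% of counts. They stayed in library sizes and tests, and shares of counts are over named rows.

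The test was edgeR's quasi-likelihood test (edgeR 4.0.16, R 4.3.3) on the counts, after TMM scaling and the default filter (minimum count 10, total 15), with genotype as the only term and p-values adjusted by Benjamini-Hochberg over all 16107 tested rows. SE were derived from the F statistic. Single ratios were compared by exact two-sided permutation over 20 arrangements. DESeq2 1.42.0, limma 3.58.1 on log2 FPKM, other scalings and filters, a length offset, a muscle covariate, added pseudogene counts and leaving out single libraries were alternatives. Correlations used SciPy 1.17.1. Replicates differed by far more than counting noise (chi-square per degree of freedom 26.7 to 167). On simulated counts for this comparison (15787 genes) the share recovered was 13.8% at 2-fold, 96.4% at 4-fold and 100% at 16-fold, beside 6 false calls. Members, lists and tests were chosen with earlier results of these data known. Genes named were Muc2, the 8 members with the largest change each way, the 5 with the highest FPKM, listed role and variant members, and up to 3 genes of each related list, of which some are not reported here; others were named after their values were seen.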

Additional observations from a re-analysis of the deposited data

How the results depend on the processing

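Members called stayed at 0 under each of the 22 alternatives, with at most 1 member at an unadjusted p under 0.05. Some settings called few or no genes of any kind, so 0 members says little there. The muscle covariate gave 0 genes higher and 0 lower. Limma on unfiltered log2(FPKM + 1) gave 3 and 0, and no composition factors gave 7 and 1. The median log2 fold change of the members ran from -0.07 (no composition factors) to 0.19 (smooth muscle score as covariate), and from -0.03 to 0.24 with single libraries left out. It lay above the median of all genes by 0.04 to 0.21 in the settings with all 6 libraries. The difference in share of counts, 0.0152 percentage points, ran from -0.668 to 0.413 with libraries left out, and that in the Rpl22l1 to Rpl22 ratio, 5.88 points, from 2.33 to 8.0. Over all 83 tested members, 59 had a positive log2 fold change in the main fit. This became 50 under upper-quartile factors and 36 without composition factors. Direction was followed gene by gene only for a set of named genes. Among these it turned for Rack1 under upper-quartile factors (-0.0074), no composition factors (-0.12) and the muscle covariate (-0.18). For Rpl30 it turned under the muscle covariate (0.055). The cause was not tested. With libraries left out, log2 fold changes ran from -0.0096 to 0.21 for Rack1 (negative without wild-type 1 or 2), -0.24 to 0.015 for Rps29 (positive without wild-type 2 or Muc2-/- 2), -0.75 to 0.10 for Rpl7a (positive without wild-type 3). Without Muc2-/- 2 the direction turned for a further 5 of the named genes. Their ranges were -0.64 to 0.050 for Rpl30, -0.073 to 0.80 for Rps12, -0.12 to 1.11 for Rps27a, -0.0083 to 0.49 for Rpl22 and -0.14 to 0.59 for Fau. The deposited replicate numbers are not said to pair animals. Deviations of same-numbered libraries correlated at 0.12, 0.32 and 0.10, where 1 value lay just under 0.1, and each library correlated best with its own number, a hint from the data only. With the replicate number as a block edgeR called 225 genes higher and 448 lower in place of 17 and 3, but 0 members, whose median was 0.11 (0.07 with a length offset). The count of all called genes also moved with DESeq2 (619 and 1256) and without wild-type 3 (272 and 954). Muc2 passed the threshold under 5 settings, without wild-type 3 among them. Simulated 2-fold changes were mostly missed with this number of libraries and the spread between them. The changed genes were drawn over a wide range of levels and not from the members alone, so their recovery is not that of the members. A member changed 2-fold or less could still be missed.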
